A study of Mus musculus with 6 samples.

Results

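The IL-20 family cytokines and their receptors were read in the ear skin of mice by 11 array probes for 9 genes, of 39389 probes for 31683 gene names on the array. The probes were those whose gene name in the scanner files was Il19, Il20, Il22, Il24, Il20ra, Il20rb, Il22ra1, Il22ra2 or Il10rb. Il19 and Il20 had a pair of probes each and the others 1. The series holds 6 one-colour arrays of total skin RNA from ear, 1 per mouse. The 3 KO mice lack NC16A, per the labels, and are numbered 1, 2 and 7, and the 3 WT mice have it and are numbered 1, 2 and 3. NC16A is a segment of BP180, which is collagen XVII, the transmembrane collagen that holds basal keratinocytes to the basement membrane. Per the design text, KO and WT mice had the same age and sex. The sources used here give neither strain, age nor the extent of the deletion. The study's title concerns spontaneous skin inflammation, and the comparison asks how the transcripts of this cytokine family differ in KO skin.

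IL-19, IL-20, IL-22 and IL-24 are relatives of IL-10 that carry signals from leukocytes and keratinocytes to epithelial cells. IL-19, IL-20 and IL-24 act through a receptor built of IL-20RA and IL-20RB, IL-20 and IL-24 also through IL-22RA1 paired with IL-20RB, and IL-22 through IL-22RA1 paired with IL-10RB. The product of Il22ra2 is a secreted receptor, IL-22 binding protein, that captures IL-22. These receptors work through Janus kinases and STAT3, and in psoriasis and in wounds the cytokines are known for driving keratinocytes to multiply and to make antimicrobial proteins.

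The share of spots well above background was 72.6% to 78.2% per array. The arrays' 75th percentile of the processed signal was 4051 to 4708 intensity units in KO and 5556 to 7056 in WT, so every KO array was dimmer before scaling. KO 1 and the 3 WT arrays shared a slide (slide 1), while KO 2 and KO 7 were on another (slide 2), so slide can be separated from group only through KO 1. The difference of each member is therefore given also within slide 1, as KO 1 minus the mean of the WT arrays, and every call also from a fit with slide as a block. Markers of the tissue were well above background on all 6 arrays: all 6 of the basal keratinocyte list, among them Krt5 and Krt14, and all 5 of the cartilage list, among them Col2a1. In RNA from whole skin, fewer cells of a type and less RNA per cell cannot be told apart.

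The probes that carry the results are shown here, since the signal of a gene is that of its probe. Sequences run 5′ to 3′ in the sense of the transcript, as the scanner files give them, with positions on mm9. The first Il20 line is the probe that measured the gene and the second is a probe that stayed at background, whose ends lie 1066 bases apart on the genome although it has 60 bases. The other lines are both Il19 probes, the Il24, Il22 and Il22ra1 probes. Where 30 bases are printed they are the first 30 of 60.
Il20, chr1:132803739-132803798, minus strand: ggctcccttatgtgaatgccttcatgtgtc
Il20, chr1:132806293-132807358, minus strand: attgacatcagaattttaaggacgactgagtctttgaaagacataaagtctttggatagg
Il19, chr1:132829235-132829294, minus strand: tgtagtgcatattgtactgactgacgttta
Il19, chr1:132829446-132829505, minus strand: agaaaaacaattgggatttgaatggatctc
Il24, chr1:132783875-132783934, minus strand: aagatcctctaccaatgaatgctgactgag
Il22, chr10:117642873-117642932, plus strand: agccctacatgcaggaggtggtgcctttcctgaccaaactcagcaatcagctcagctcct
Il22ra1, chr4:135307221-135307280, plus strand: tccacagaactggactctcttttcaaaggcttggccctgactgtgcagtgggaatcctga

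Of the 9 members, 1 rose in KO, 0 fell and 8 did not pass in limma at an adjusted p under 0.05. The one that rose was Il20. Of the 23676 genes in the same fit, 2.42% were called, 474 that rose and 99 that fell, and with 9 members these shares allow no reading of the family as a group. All 9 members were well above background on all 6 arrays with the probe used. At an unadjusted p under 0.05 there were 3 members, Il20, Il22ra1 and Il19, against 26.6% of all genes. The KO values of Il19, Il20 and Il22ra1 lay wholly above the WT values, as for 20.7% of all genes, and those of Il20ra and Il20rb wholly below, as for 14.6%. The other 4 members overlapped. With slide as a block, 0 of the 9 members passed in limma, beside 0.672% of all genes called higher and 0.0422% called lower, while Il20 and Il22ra2 had an unadjusted p under 0.05. The median difference of the members was 0.21 on the log2 scale, beside 0.05 for all genes. Each difference below is the KO mean minus the WT mean in log2 units, from signals divided by the array's 75th percentile, with the standard error (SE) of the limma fit and 3 mice per group.

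**Figure D1:**
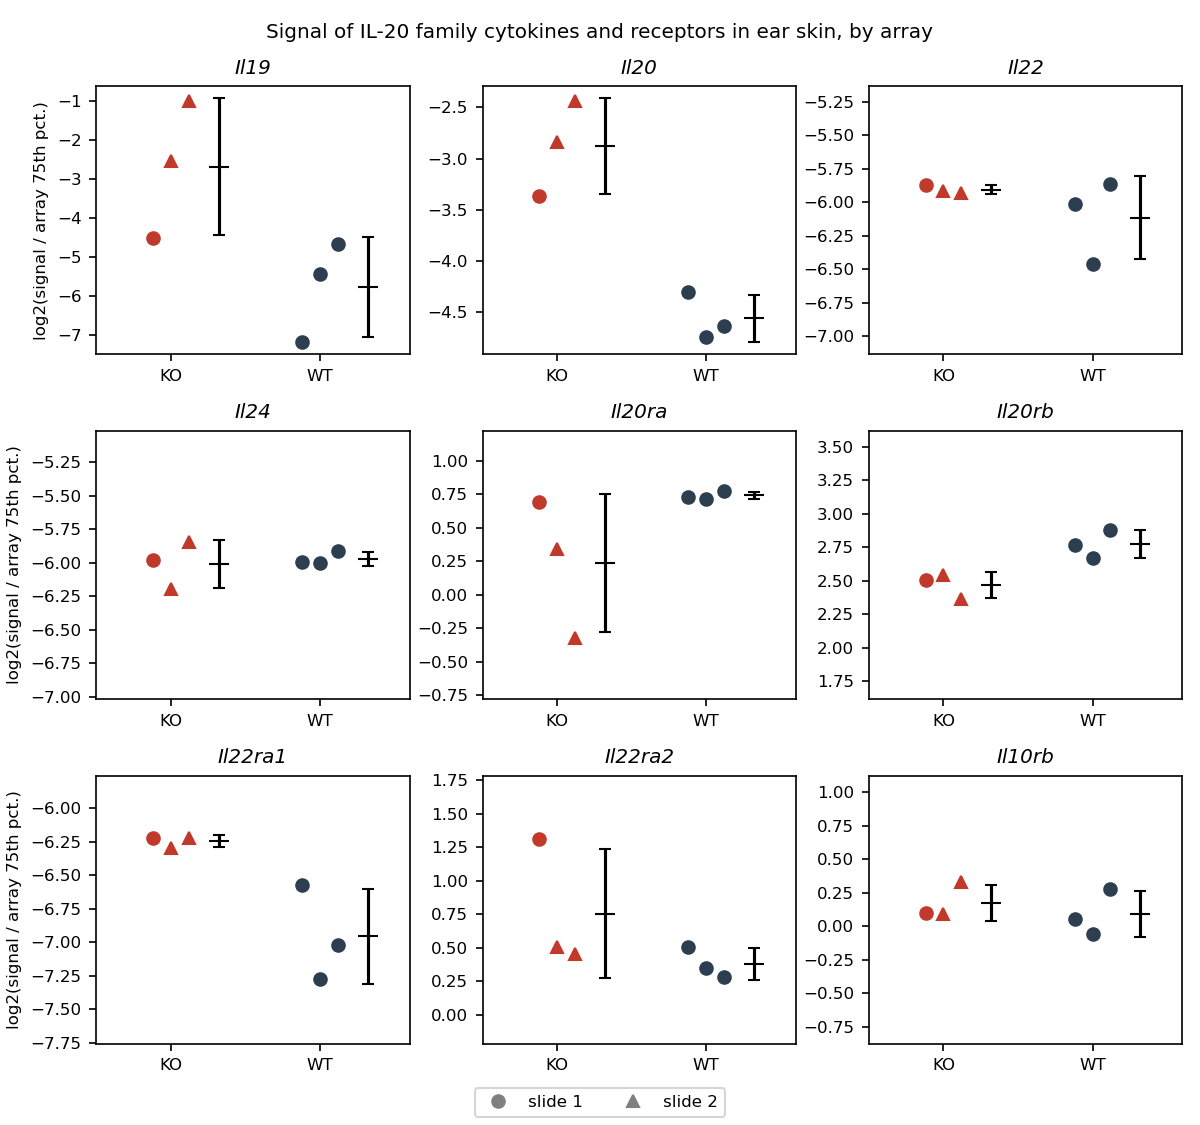
Log2 of the processed signal over the array's 75th percentile for each member, with KO at the left and WT at the right of each panel. Each point is 1 mouse, circles are slide 1 and triangles slide 2, and the bar gives the mean and SD of 3 arrays; Il19, Il20 and Il22ra1 are higher on every KO array than on any WT array, and the axes differ between panels.

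Il20, the gene of a cytokine that keratinocytes and myeloid cells make and that acts on keratinocytes, was the member that rose. Its processed signal was 456, 621 and 751 intensity units in KO 1, 2 and 7, against 357, 207 and 236 in WT 1, 2 and 3. All KO arrays were brighter than all WT arrays even before scaling, although the KO arrays were dimmer as a whole. On the scaled log2 axis Il20 was -2.88 ± 0.47 in KO and -4.56 ± 0.23 in WT (SD, n = 3 each). The difference was 1.68 ± 0.26 (SE), or 3.21-fold, with a 95% confidence interval from 1.06 to 2.30 (limma, adjusted p = 0.030). Within slide 1 it was 1.19, and with slide as a block Il20 did not pass (limma, adjusted p = 0.25). The call was also lost without WT 1, WT 2, WT 3 or KO 2 (limma, adjusted p = 0.054, 0.12, 0.10 and 0.099), and kept without KO 7 or without KO 1, a fit in which slide and group cannot be told apart. The difference stayed between 1.46 and 1.93 over these 6 fits.

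The other Il20 probe, with its ends far apart on the genome, was not well above background on any array. It gave 6.79 to 13.7 intensity units in KO and 4.89 to 5.86 in WT. These values were under the lowest signal counted as well above background, which was 17.6 to 33.3 on the KO arrays and 20.8 to 29.1 on the WT arrays, so they give no level. The Il20 result thus rests on 1 probe.

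Il19, whose product shares the receptor of IL-20RA and IL-20RB and is made by monocytes and keratinocytes, had the largest fitted difference of the family and did not pass. The probe used gave 207, 762 and 2027 intensity units in KO 1, 2 and 7, against 48.6, 128 and 230 in WT 1, 2 and 3. KO 7 was far above the rest, and KO 1 lay below WT 3 before scaling and just above it after scaling, at -4.51 against -4.67. The spread within groups was the widest among the members, with a scaled level of -2.68 ± 1.76 in KO and -5.76 ± 1.29 in WT (SD, n = 3 each). The difference was 3.08 ± 0.98 (SE), with a 95% confidence interval from 0.74 to 5.43 (limma, adjusted p = 0.13). Within slide 1 it was 1.26, and with slide as a block the adjusted p in limma was 0.91. The second Il19 probe gave 121, 299 and 735 units in KO 1, 2 and 7, against 78.6, 90.9 and 147 in WT 1, 2 and 3. Both probes put the 6 scaled arrays in the same order, and the second gave a smaller difference of 2.04, which did not pass either (limma on single probes, adjusted p = 0.14).

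Il24, whose product acts through the same receptors as IL-20, did not pass. Its signal was 74.4, 60.3 and 70.4 intensity units in KO 1, 2 and 7, against 110, 86.6 and 97.5 in WT 1, 2 and 3. After scaling, the groups overlapped at -6.01 ± 0.18 in KO and -5.97 ± 0.051 in WT (SD, n = 3 each). The difference was -0.04 ± 0.14 (SE; limma, adjusted p = 0.87), and its 95% confidence interval, from -0.37 to 0.30, leaves out a rise of the size fitted for Il20. The slide 1 value was -0.01. Its signal was within a few-fold of the lowest counted as well above background, which limits what this probe and its interval can show.

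Il22, the cytokine of T cells and innate lymphoid cells that acts on epithelium, did not pass either. It gave 80.5, 73.5 and 66.5 intensity units in KO 1, 2 and 7, against 109, 63.0 and 101 in WT 1, 2 and 3. After scaling, the KO arrays lay close together at -5.90 ± 0.031 and within the range of the WT arrays, at -6.11 ± 0.31 (SD, n = 3 each). The difference was 0.21 ± 0.18 (SE), with a 95% confidence interval from -0.22 to 0.64 (limma, adjusted p = 0.47), and within slide 1 it was 0.24. Mouse Il22 has a near-identical copy in some strains, Iltifb, and the Il22 probe may read both. Both Iltifb probes were at 3.93 to 7.56 units in KO and 4.39 to 6.43 in WT and thus at background throughout.

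Among the receptor genes none passed. Il20ra, the chain that binds IL-19, IL-20 and IL-24, gave 7610, 5623 and 3231 intensity units in KO 1, 2 and 7, against 11722, 9129 and 10035 in WT 1, 2 and 3. After scaling, the WT arrays agreed closely at 0.74 ± 0.029 and the KO arrays were all lower and spread out, at 0.24 ± 0.52 (SD, n = 3 each), with 0.69 in KO 1, 0.34 in KO 2 and -0.33 in KO 7. The difference was -0.50 ± 0.26 (SE; 95% confidence interval from -1.12 to 0.11; limma, adjusted p = 0.25). The slide 1 value was -0.05. The KO 7 array, which had the highest Il19 and Il20, had the lowest Il20ra.

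Il20rb, the chain that the receptors of IL-19, IL-20 and IL-24 share, gave 26756, 25910 and 20817 intensity units in KO 1, 2 and 7, against 48156, 35287 and 43153 in WT 1, 2 and 3. After scaling, it was 2.47 ± 0.098 in KO and 2.77 ± 0.10 in WT (SD, n = 3 each), with each KO array under each WT array. The difference was -0.30 ± 0.13 (SE; 95% confidence interval from -0.61 to 0.01; limma, adjusted p = 0.20). Within slide 1 it was -0.26, so KO 1 was about as far from the WT mean as the group as a whole.

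Il22ra1, the chain that binds IL-22 and that also serves IL-20 and IL-24, gave 63.0, 56.3 and 54.3 intensity units in KO 1, 2 and 7, against 74.1, 35.9 and 45.3 in WT 1, 2 and 3. The groups overlapped before scaling. After scaling, the KO arrays were at -6.25 ± 0.046 and the WT arrays at -6.96 ± 0.36 (SD, n = 3 each). The difference was 0.71 ± 0.20 (SE; 95% confidence interval from 0.24 to 1.18; limma, adjusted p = 0.10), and within slide 1 it was 0.73. A probe named 9130219A07Rik, which a RefSeq gene table lists as a synonym of Il22ra1, went the other way. It gave 2539, 2053 and 1912 units in KO 1, 2 and 7, against 4917, 3443 and 4427 in WT 1, 2 and 3, with a difference of -0.49 (limma on single probes, adjusted p = 0.11) and -0.35 within slide 1. The array data therefore give no single direction for this receptor gene.

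Il22ra2, the gene of the secreted IL-22 binding protein, gave 11674, 6291 and 5546 intensity units in KO 1, 2 and 7, against 10036, 7074 and 7133 in WT 1, 2 and 3. KO 1 stood above the other arrays, and after scaling KO 2 and KO 7 lay inside the WT range. The scaled levels were 0.76 ± 0.48 in KO and 0.38 ± 0.12 in WT (SD, n = 3 each), a difference of 0.38 ± 0.25 (SE; 95% confidence interval from -0.22 to 0.97; limma, adjusted p = 0.35). Within slide 1, which rests on KO 1, it was 0.93 and did not pass with slide as a block (limma, adjusted p = 0.18). Without KO 1 the difference was 0.10.

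Il10rb, the chain shared with the receptors of IL-10 and interferon lambda, gave 5046, 4726 and 5098 intensity units in KO 1, 2 and 7, against 7316, 5331 and 7127 in WT 1, 2 and 3. After scaling, the groups overlapped at 0.17 ± 0.14 in KO and 0.09 ± 0.17 in WT (SD, n = 3 each). The difference was 0.08 ± 0.15 (SE; limma, adjusted p = 0.73), or 0.01 within slide 1, with a 95% confidence interval from -0.27 to 0.44.

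**Figure D2:**
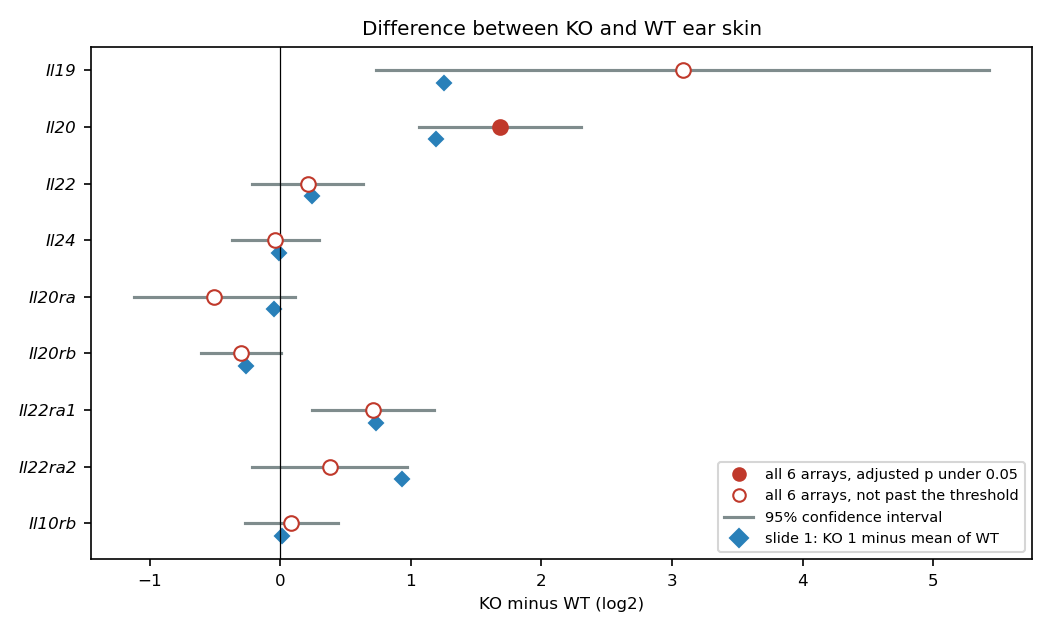
KO minus WT difference of each member on the log2 scale, with the 95% confidence interval of the limma fit (grey line) and the value within slide 1 (blue diamond). The filled circle is Il20, the member with an adjusted p under 0.05; for Il19, Il20 and Il20ra the slide 1 value is nearer to 0 than the value from all arrays, and for Il22ra2 it is farther.

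Ratios of members within an array do not depend on the scaling between arrays, and 5 were computed. The log2 ratio of Il20 to Il24 was 2.61, 3.36 and 3.41 in KO 1, 2 and 7, against 1.69, 1.26 and 1.27 in WT 1, 2 and 3. That of Il19 to Il24 was 1.48, 3.66 and 4.85 in KO 1, 2 and 7, against -1.19, 0.57 and 1.24 in WT 1, 2 and 3. In both ratios every KO array was above every WT array, and the mean differed by 1.72 for Il20 and by 3.12 for Il19. The exact two-sided permutation test gave p = 0.10 for each, the smallest that 3 against 3 mice can give, or 0.25 adjusted over the 5 ratios. The ratios of Il20ra to Il20rb, Il20ra to Il10rb and Il22ra2 to Il22ra1 overlapped between the groups (exact permutation p of 0.60, 0.20 and 0.30).

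Il24, Il20 and Il19 lie next to each other on chromosome 1, with Il10 and Mapkapk2 beyond Il19 and with Fcmr, Pigr and Fcamr beyond Il24, in the gene order of GRCm38.p6. Of 11 listed neighbours of the members 10 were measured, and 1 rose, 0 fell and 9 did not pass. The one that rose was Fcmr, the gene of an IgM Fc receptor next to Il24. It was at -3.71, -3.36 and -3.29 in KO 1, 2 and 7, against -4.70, -4.81 and -4.61 in WT 1, 2 and 3. Every KO array was above every WT array, as for 20.7% of all genes, with a difference of 1.25 ± 0.16 (SE; limma, adjusted p = 0.013). Within slide 1 it was 0.998, and Fcmr did not pass with slide as a block (limma, adjusted p = 0.14) and lost its call when WT 2, WT 3 or KO 2 was left out (adjusted p of up to 0.078). Fcamr, of another immunoglobulin Fc receptor, differed by 0.65 ± 0.19 (SE; limma, adjusted p = 0.11), and by 0.56 within slide 1.

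The other genes of that stretch are given for their position, after their values were seen. Pigr, the gene of the receptor that carries immunoglobulins across epithelium, differed by 1.24 ± 0.37 (SE; limma, adjusted p = 0.12) and by 0.79 within slide 1. Il10, well above background on 2 of 3 KO and 1 of 3 WT arrays, differed by 0.40 ± 0.35 (SE; limma, adjusted p = 0.47), and by -0.34 within slide 1. Mapkapk2, a kinase gene, differed by -0.02 ± 0.13 (SE; limma, adjusted p = 0.92). In this stretch the 2 genes that rose, Fcmr and Il20, thus lie on either side of Il24, whose groups overlapped.

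**Figure D3:**
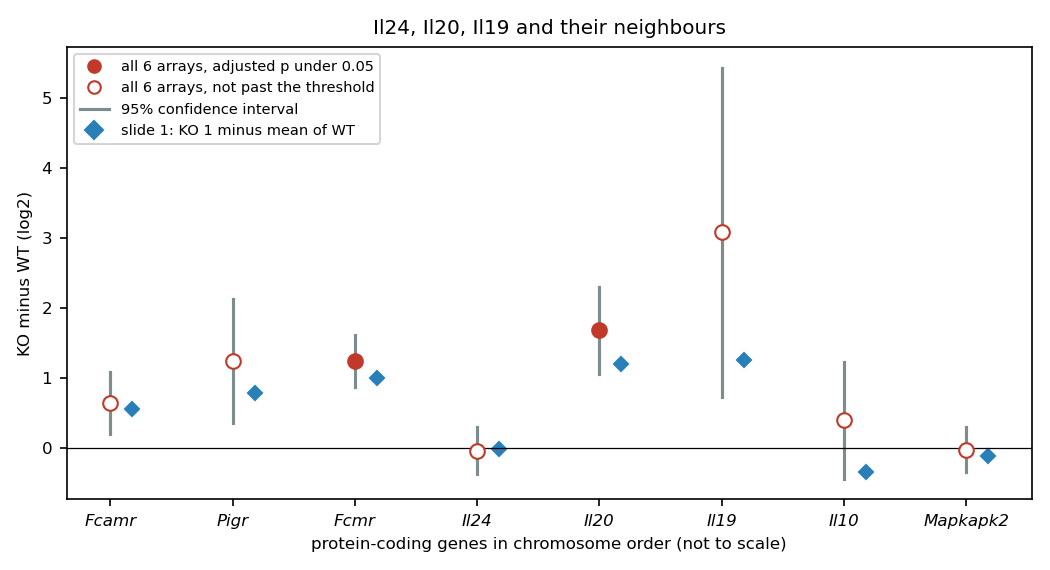
KO minus WT difference (log2) of Il24, Il20, Il19 and the protein-coding genes around them in chromosome order, with the 95% confidence interval of the limma fit (grey line) and the value within slide 1 (blue diamond). Filled circles mark Fcmr and Il20, which had an adjusted p under 0.05; Il24 between them is near 0 and Il19 has the widest interval.

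The sequences before the start of Il20 and Il19 are shown because they were the cytokine genes higher on every KO array. Il22ra1, a receptor gene, was so too, and its sequence is not printed. RefSeq entries of build GRCm38.p6 matched 6 of the 9 members (Il19, Il20, Il20ra, Il20rb, Il22 and Il22ra1). The 250 bases before the start were searched on both strands for an AP-1 motif (TGANTCA), a STAT motif (TTCNNNGAA) and the NF-kB consensus, which do not overlap in these lines. Capitals mark matches.
Il19, chr1:130940116-130940365, minus strand: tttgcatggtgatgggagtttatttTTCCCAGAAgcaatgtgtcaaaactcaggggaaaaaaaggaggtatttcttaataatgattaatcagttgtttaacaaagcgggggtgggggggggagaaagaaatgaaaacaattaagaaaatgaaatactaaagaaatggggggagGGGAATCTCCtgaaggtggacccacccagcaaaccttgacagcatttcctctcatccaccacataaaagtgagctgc
Il20, chr1:130911297-130911546, minus strand: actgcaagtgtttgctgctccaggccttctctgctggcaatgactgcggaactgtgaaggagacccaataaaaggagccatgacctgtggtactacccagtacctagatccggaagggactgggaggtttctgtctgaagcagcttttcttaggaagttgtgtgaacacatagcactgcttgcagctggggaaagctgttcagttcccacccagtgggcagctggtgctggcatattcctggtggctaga

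The Il19 window held 1 STAT match, from 225 to 217 bases before the start, and 1 NF-kB match, from 77 to 68 bases before it. The Il20 window held none of the 3 motifs. An AP-1 match was found in the windows of Il20ra and Il22ra1, and an NF-kB match in that of Il22ra1. Of 32851 promoters in the table, 6.75% held the AP-1 motif, 7.02% the STAT motif and 7.25% the NF-kB consensus in the same window. A match is a description of letters only.

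The genes whose values over the 6 arrays were most like Il20, each centred on its own WT mean, were Cyp7b1, Grin3b and Bcl3. Their root mean square distances from Il20 were 0.12, 0.14 and 0.15 on the log2 scale. Cyp7b1, a sterol hydroxylase gene, was at -0.30, 0.33 and 0.92 in KO 1, 2 and 7, against -1.06, -1.34 and -1.46 in WT 1, 2 and 3. Bcl3, which encodes a nuclear partner of NF-kB, was at 1.52, 2.26 and 2.63 in KO 1, 2 and 7, against 0.64, 0.58 and 0.46 in WT 1, 2 and 3. For Il19 the nearest were Tcra, 4930469K13Rik and Dhrs9. Tcra was well above background on 0 of 3 WT arrays and 4930469K13Rik on 1 of 3, so their distances rest in part on background and are not given. Dhrs9, which was well above background on all 6 arrays, was at a distance of 0.76.

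Genes of the family's pathway were read from the same fit, in which 474 of 23676 genes rose and 99 fell. In the list of Janus kinase, STAT and SOCS genes 0 of 12 passed in limma, with a median difference of 0.08, or -0.04 within slide 1. The 2 with the smallest p were Socs3, the feedback inhibitor that STAT3 induces, and Stat3 itself. Socs3 was at 2.11 ± 0.21 in KO and 1.44 ± 0.073 in WT (SD, n = 3 each), a difference of 0.67 ± 0.15 (SE; limma, adjusted p = 0.073). Stat3 was at 3.39, 3.66 and 3.91 in KO 1, 2 and 7, against 2.62, 2.75 and 3.19 in WT 1, 2 and 3, a difference of 0.80 ± 0.21 (SE; limma, adjusted p = 0.093). Both were higher on every KO array, as were 20.7% of all genes, and within slide 1 they differed by 0.55 and 0.54.

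Other class II cytokines and receptors, the wider family that holds IL-10 and the interferons, had 0 of 10 measured genes past the threshold in limma and a median difference of 0.33, or 0.07 within slide 1. F3, the tissue factor gene, differed by -0.67 ± 0.17 (SE; limma, adjusted p = 0.087) and Ifngr1, a chain of the interferon gamma receptor, by 0.43 ± 0.16 (SE; limma, adjusted p = 0.15). Within slide 1 they differed by -0.45 and 0.58.

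Genes that induce IL-22 or mark the cells that make it gave 2 that rose, 0 that fell and 8 that did not pass among 10 measured, with a median difference of 1.53, or 0.79 within slide 1. Both that rose, Il17a and Il17f, were at background on part of the WT arrays, and of the 8 genes well above background on all 6 arrays none passed in limma, in this fit or in one restricted to such probes. Il23a, Il12b and Ccl20 were not tested, since their probes were well above background on fewer than 3 arrays. Il17a, the cytokine that the same T cells make, was at -4.07, -3.21 and -2.92 in KO 1, 2 and 7, against -7.41, -8.18 and -8.23 in WT 1, 2 and 3, where 1 of 3 WT arrays was well above background, so that it was tested only because all KO arrays were. With WT values raised to the lowest signal counted as well above background on their array, the difference was 4.19, in place of the fitted 4.54 (limma, adjusted p = 0.0027, and 0.022 with slide as a block). Il17f was at -6.20, -5.96 and -6.13 in KO 1, 2 and 7, against -7.61, -7.96 and -7.12 in WT 1, 2 and 3, with 2 of 3 WT arrays well above background. The fitted difference was 1.47 (limma, adjusted p = 0.030), or 1.37 within slide 1 and 1.38 with WT values raised in the same way, and the call was lost with slide as a block (adjusted p = 0.32) and without WT 1, WT 2, KO 2 or KO 7 (highest adjusted p = 0.10). The count of 2 became 0 with replicate number as a block and with a filter on all 6 arrays. It became 1 with no filter, with slide as a block and without WT 1, WT 2 or KO 2. It became 6 with normexp background and without KO 1, 4 with an intensity trend and 8 with array weights.

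Genes that the family's cytokines are known to induce in keratinocytes, mostly from human cell culture, had a positive difference in 17 of 17 measured. Of the 17, 14 were well above background on all 6 arrays. S100a7a was so on 1 of 3 WT arrays, and Defb4 and Reg3g on 2 of 3, so their differences rest in part on background. In the list 8 rose, all of them among the 14, while 0 fell and 9 did not pass, beside 2.42% of all genes called in either direction. The median difference was 2.73, or 2.36 within slide 1, beside 0.05 and -0.01 for all genes. The genes with the smallest p were S100a9 and S100a8 of calprotectin, the growth factor gene Areg and the lipocalin gene Lcn2. S100a9 differed by 4.68 ± 0.30 (SE), S100a8 by 4.71 ± 0.35, Areg by 2.54 ± 0.28 and Lcn2 by 2.71 ± 0.34 (limma, adjusted p = 0.0018, 0.0023, 0.0087 and 0.014). With slide as a block, 2 of the 17 passed, S100a9 and S100a8, beside 0.672% of all genes called higher. Without WT 2 or without WT 3, 4 of the 17 passed, and Lcn2 was among those lost without WT 2 (adjusted p = 0.072). Other cytokines induce the same genes, and the list was chosen with results of these arrays known. In RNA from whole skin these signals cannot be assigned to keratinocytes, and the part of other cells, neutrophils among them, was not tested.

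Genes that IL-22 is known to lower in cultured human keratinocytes, those of terminal differentiation, had 0 of 9 past the threshold in limma and a median difference of 0.38, or 0.08 within slide 1. Flg2, a filaggrin relative, differed by -0.79 ± 0.19 (SE; limma, adjusted p = 0.084) and Krt1, a suprabasal keratin gene, by 1.15 ± 0.29 (SE; limma, adjusted p = 0.089). Within slide 1 they differed by -0.46 and 0.70.

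**Figure D4:**
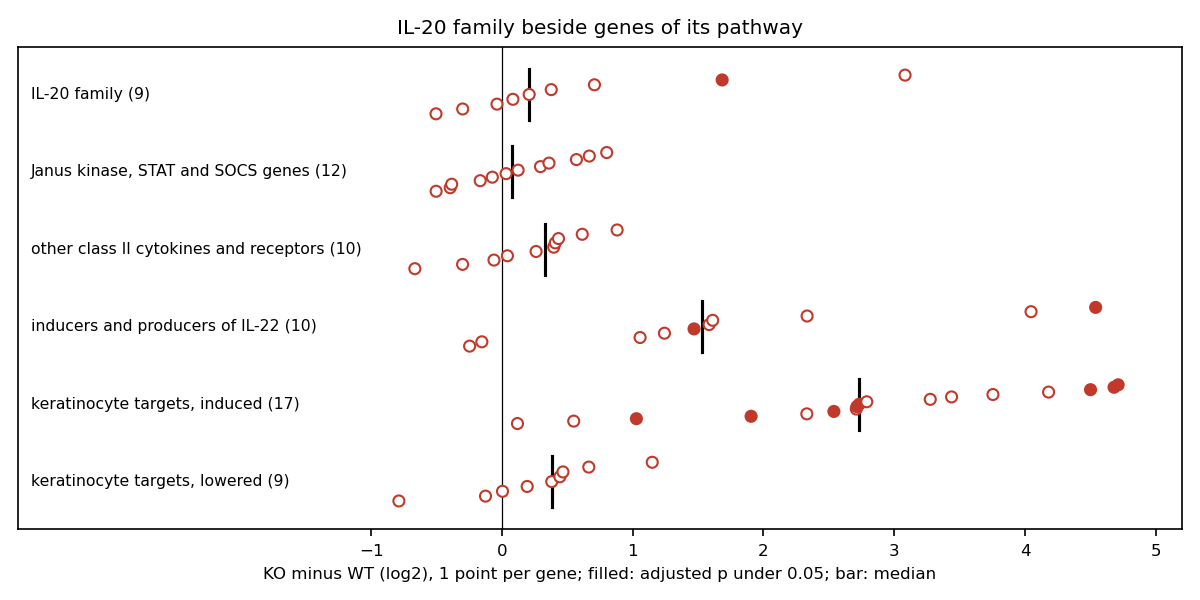
KO minus WT difference (log2) of each measured gene in the IL-20 family and in 5 lists of its pathway, 1 point per gene, with the number of genes in parentheses. Filled points had an adjusted p under 0.05 and the bar is the median; the induced keratinocyte targets lie to the right, with a median of 2.73, and the family's own median is 0.21.

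Markers of cells that could make or receive these cytokines moved in part with the groups. None of 8 T cell markers and none of 8 monocyte and macrophage markers passed in limma, while Cd163l1 was 1 of 5 measured gamma delta T cell markers that rose (2.74 ± 0.48, SE; limma, adjusted p = 0.045). Cd163l1 differed by 1.74 within slide 1, did not pass with slide as a block (adjusted p = 0.34), and lost its call when WT 1, WT 2, WT 3 or KO 2 was left out (adjusted p of up to 0.16), and also with no filter and with quantile scaling. With slide as a block, 1 gene of that list passed, Blk, a kinase gene of B cells and some gamma delta T cells that is named after its values were seen. Without the block Blk did not pass (2.24 ± 0.51, SE; limma, adjusted p = 0.076). It was at -4.10, -6.26 and -5.61 in KO 1, 2 and 7, and its slide 1 value of 3.47 rests on KO 1. On the WT side, 2 of 3 arrays had Blk well above background. The summed scaled signal of the T cell list was 5.27 to 7.73 in KO and 4.94 to 5.58 in WT, and that of the gamma delta list 3.52 to 7.42 in KO and 2.16 to 2.38 in WT. That of the monocyte and macrophage list was 17.9 to 29.4 in KO and 21.3 to 25.1 in WT, and that of the basal keratinocyte list 287 to 317 in KO and 225 to 261 in WT, although 0 of its 6 genes passed in limma, with a median difference of 0.13 and with Col17a1 at -0.13. That of the neutrophil list was 11.4 to 19.3 in KO and 8.21 to 8.93 in WT. Of its 6 measured genes, 5 had a positive difference and 1 a negative one, and 1 passed. The one that passed was Cxcr2, a chemokine receptor gene (2.04 ± 0.26, SE; limma, adjusted p = 0.015; 1.501 within slide 1). Cxcr2 did not pass with slide as a block (adjusted p = 0.098) or when WT 2, WT 3 or KO 2 was left out. Csf3r, which had the highest signal of the list on every array, did not pass (0.73 ± 0.23, SE; limma, adjusted p = 0.13). Ly6g was lower on every KO array than on any WT array (-0.35 ± 0.15, SE; limma, adjusted p = 0.19), as were 14.6% of all genes.

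In the lists of dendritic and Langerhans, mast, fibroblast and endothelial cells no gene passed in limma. The same held for adipocyte, skeletal muscle and cartilage markers, whose medians were -1.04, -0.65 and -0.62 over all arrays, or -0.45, -0.37 and -0.63 within slide 1, and whose 5 genes each were lower in KO in the fit, except 1 of the cartilage list. As tested markers had to be well above background on at least 3 arrays, none of them could be at background throughout. The gamma delta markers Trgc1 and Trdc and the neutrophil markers Ngp and Itgb2l were not in the fit. The part of these cell types in the Il20 result was not tested.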

How the data were processed

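Per the file headers, the deposited scanner files came from Agilent Feature Extraction 10.7.3.1 on design 026655, and their processed signal is an intensity from which the software had subtracted background and spatial trends, with no scaling between arrays. For all 43340 features the series matrix equals that processed signal. RNA was extracted with Qiagen kits, per the labels' protocols. No spot was saturated. Outlier spots (170 to 249 per array) were left out and spots of a probe averaged. Values were log2 of the signal minus the array's 75th percentile. A probe entered when at least 3 arrays had it well above background (29601 probes), and the one with the highest mean stood for its gene (23676 genes). KO and WT were set against each other with limma 3.58.1 in R 4.3.3 (lmFit, eBayes, two-sided, no covariate, Benjamini-Hochberg over all genes, adjusted p under 0.05), tested first on simulated data. With 6 arrays, the number of mice limits the precision. Slide was read from the file headers.

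Members and lists were chosen with earlier results of these data known. Text names all members, in each pathway list the called genes with the smallest p, at most 4 (if fewer than 2 were called, those 2 of smallest p), and the 3 genes nearest to a called member and to the one with the largest difference. The alternatives were normexp background (offset 50), quantile or median scaling, a 75th percentile over detected probes, other filters and probe summaries, the series matrix, replicate number or slide as a block, an intensity trend, array weights and each mouse left out. Replicate numbers 1 and 2 occur in both groups, but no source says that they pair mice, and their deviations correlated at 0.083 and 0.054. Gene names and promoters came from RefSeq tables of GRCm38.p6.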

Additional observations from a re-analysis of the deposited data

How the results depend on the processing

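Il20 was the only member past the threshold with normexp background, quantile or median scaling, a percentile over detected probes, a filter on all 6 arrays, both other probe summaries, the series matrix, slide as a random block and an intensity trend, and its difference was above 0 in all 20 alternatives (1.19 to 1.93). No member passed in limma with no filter (0 members; 3 at an unadjusted p under 0.05), with replicate number as a replicate block (0 members, Il20 at 1.42, adjusted p = 0.20; 2 at an unadjusted p under 0.05; 0 of all genes passed and 4527 had an unadjusted p under 0.05) or with slide as a fixed block (0 members; 2 at an unadjusted p under 0.05). The replicate block compares the groups only through mice 1 and 2 of each group, since WT 3 and KO 7 had no partner. With array weights 3 passed, Il19, Il20 and Il22ra1, in a fit that called 4358 genes higher and 3178 lower, against 474 and 99 in the unweighted fit. Leaving out 1 mouse gave 0 to 1 members. Over all genes these fits called 181 to 713 higher and 18 to 258 lower, slide as a fixed block 159 and 10, no filter 270 and 29, normexp 876 and 143, and quantile scaling 333 and 119. Median scaling moved the median of all genes by -0.11. The difference of Il22 was -0.0082 with quantile scaling, that of Il10rb was -0.0275 with median scaling, and that of Il24 was 0.12 with normexp and -0.12 to 0.057 with 1 mouse left out, none of them past the threshold. The cause of these changes was not tested. Il22, Il24 and Il22ra1 were within a few-fold of the lowest signal counted as above background, which limits what their probes can show. The same held for Il19 on WT 1, at 48.6 intensity units against a lowest of 20.8 on that array. This low value enters the Il19 difference and the ratio of Il19 to Il24.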
